A study of Bos taurus with 6 samples.

Results

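Glucose uptake, glycolysis and the hypoxia response were followed through 30 genes in BEND cells, an established cell line labelled as bovine endometrial epithelium. The 30 genes were found by symbol among the 20958 genes of the deposited table, and all 30 passed the filter on low counts. They comprised 2 glucose transporters, 14 enzymes of glycolysis, 2 PFKFB enzymes, LDHA and PDK1 at the fate of pyruvate, 2 HIF alpha factors, 3 genes of HIF degradation and 5 targets of hypoxia signalling. In the study, BEND cells were transfected with a mimic of bovine miR-200b (bta-miR-200b), a synthetic duplex that supplies the mature microRNA, or with a negative-control mimic (NC). Each group had 3 RNA-seq libraries. The culture medium of both groups was DMEM plus fetal bovine serum and antibiotics, the labels tag both groups with apoptosis, and no oxygen level, dose or time after transfection is stated there. The labels do not tell whether replicates were separate cultures, so the p-values reflect variation among these 6 libraries, possibly only technical.

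Glucose enters a cell through facilitative transporters, is trapped by hexokinase and is split in glycolysis into pyruvate, which is reduced to lactate or oxidised in mitochondria. When oxygen falls, the HIF alpha subunits escape prolyl hydroxylation and VHL-dependent degradation, and they raise the transcription of transporters, glycolytic enzymes and PDK1. In the endometrium, glucose handling by the epithelium supplies both the tissue and the uterine fluid that feeds the early embryo.

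The libraries held 19212694 to 21129547 counts, so 1 CPM (a read count relative to the scaled library total) stood for 19.2 to 20.8 reads. The 30 genes took 1.62% to 1.80% of the scaled reads. Comparing the counts of library pairs gave chi-square values per degree of freedom between 5.11 and 12 within a group and between 8.53 and 22.1 across groups, so no library was a copy of another. The ranges overlapped through mimic replicate 3 and NC replicate 3, the pair at 8.53. Mimic replicate 1 differed more from mimic replicates 2 and 3, at 9.20 and 12, and NC replicate 2 from NC replicate 3, at 10.8. Of 6 epithelial markers, 5 were higher in the mimic libraries, with a summed level of 10430.4 to 11852 CPM against 8587 to 9303 CPM. Of 8 stromal markers, 3 were lower, namely DCN, PDGFRB and PDGFRA, with log2 fold changes of −0.42, −0.34 and −0.26. For these 3, every mimic library was below every NC library. Without mimic replicate 2 or NC replicate 3 the count of lower markers was 1. The 8 markers summed to 20114 to 22877.5 CPM with the mimic and 21117 to 22846 CPM in NC. COL1A1 and COL1A2 made up most of these sums and did not pass, with log2 fold changes of 0.05 and 0.02. In NC the epithelial keratins KRT8 and KRT19 averaged 4494 and 3917 CPM and EPCAM 0.0502 CPM, against 1.52 to 3.32 CPM of EPCAM in the mimic libraries, while the fibroblast collagens COL1A1 and COL1A2 averaged 6622 and 11640.4 CPM. The immune markers PTPRC and CD3E and the red-cell markers HBB and ALAS2 had no reads in any library, and the 5 immune markers summed to 3.05 to 3.08 CPM with the mimic and 4.01 to 4.58 CPM in NC. Among 22 genes that encode ribosomal proteins, 2 were called lower, RPS23 and RPL12, and the fitted change was negative for all 22. Together they summed to 19383 to 20650 CPM with the mimic and 20615 to 22812 CPM in NC. RNA quality was not tested, and these levels do not measure it. The ribosomal count was 0 without mimic replicate 2 or NC replicate 1, and leaving out NC replicate 2, NC replicate 3 or mimic replicate 1 gave 1, 4 and 5. The part of these marker differences in the results that follow was not tested.

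Few of the 30 genes moved. The glucose transporter gene SLC2A1 and the enolase gene ENO1 were higher with the mimic, EPAS1, which encodes the factor HIF-2 alpha, and NDRG1, a stress- and hypoxia-induced gene, were lower, and the other 26 did not pass. SLC2A1 rose 1.89-fold and ENO1 rose 1.2-fold, while EPAS1 fell by 20.5% and NDRG1 fell by 16.7%. At an adjusted p of 0.05 (edgeR quasi-likelihood F test, Benjamini-Hochberg over the 12217 tested genes), 4 of 30 members passed, or 13.3%, against 6.45% of all tested genes. In one direction each, 2 members were higher, where 4.3% of all genes were, and 2 were lower, where 2.15% were. The median log2 fold change of the members was −0.08, with 9 above 0 and 21 below, against a median of 0.00 over all tested genes, of which 6140 were above 0 and 6077 below. The values of the groups did not overlap for 10 members, or 33.3%, against 21.8% of all genes. Of these, 3 were higher, against 11.4% of all genes, and 7 were lower, against 10.4%. Whether the 4 called members passed depended on single libraries, but their log2 fold changes kept their sign with any library left out. They ranged from 0.73 to 1.23 for SLC2A1, 0.20 to 0.32 for ENO1, −0.40 to −0.25 for EPAS1 and −0.31 to −0.22 for NDRG1. Without mimic replicate 2, NC replicate 1 or NC replicate 3, 0 members were called, and without mimic replicate 1 the calls were 0 higher and 2 lower. The first 3 omissions also cut the calls over all genes, from 525 higher to 322, 275 and 406, and from 263 lower to 82, 93 and 153. In these bulk samples, fewer cells of a type and less RNA per cell cannot be told apart.

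**Figure D1:**
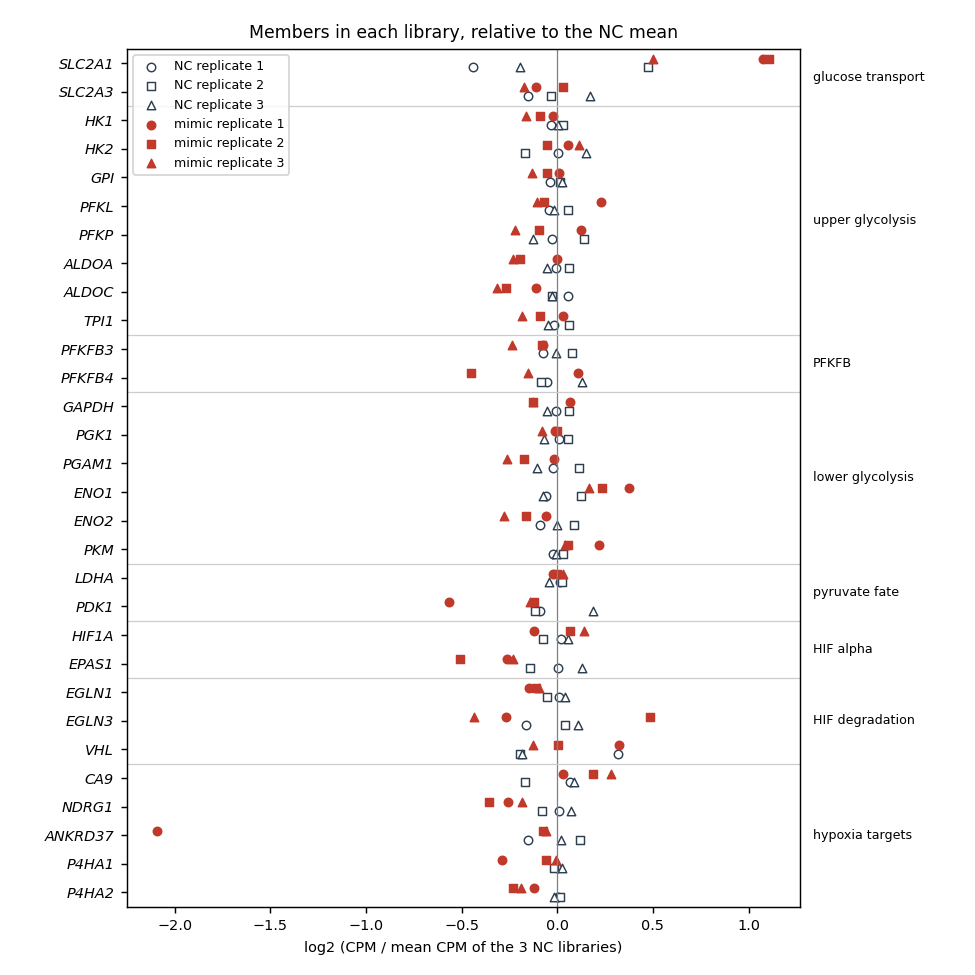
Each point is 1 library, placed at the log2 ratio of its CPM to the mean CPM of the 3 NC libraries. Filled red symbols are mimic libraries and open symbols NC libraries, with genes grouped by role. Most genes lie close to 0 with the groups mixed, SLC2A1 and ENO1 lie to the right in all 3 mimic libraries, EPAS1 and NDRG1 to the left, and 1 mimic library stands far left for ANKRD37.

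**Figure D2:**
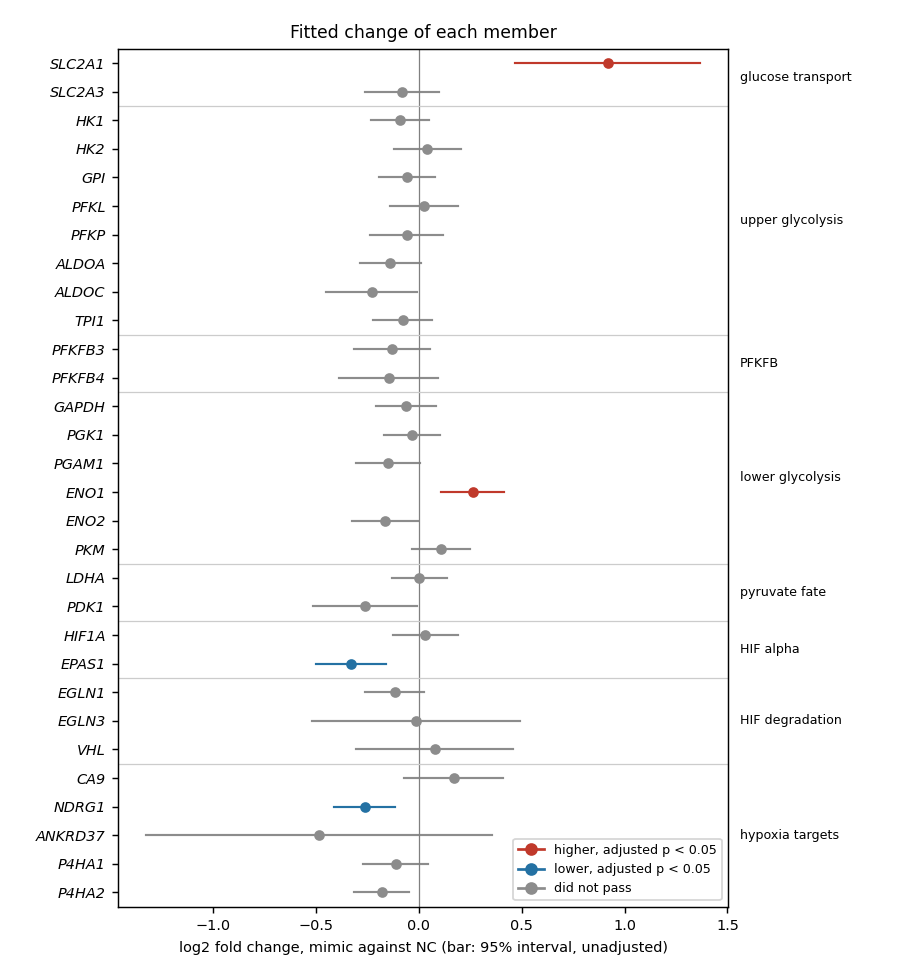
Fitted log2 fold changes of mimic against NC with unadjusted 95% intervals, n = 3 libraries per group. The 4 coloured genes passed the adjusted threshold. The longest bars belong to genes with few reads, such as ANKRD37 and EGLN3.

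SLC2A1 encodes the widespread basal glucose transporter, and few of its reads were found in these cells. It had 5.78, 5.91 and 3.88 CPM in mimic replicates 1 to 3, from 120, 121 and 79 reads. In NC replicates 1 to 3 it had 2.02, 3.82 and 2.39 CPM, from 41, 77 and 46 reads. The groups did not overlap, but mimic replicate 3 and NC replicate 2 nearly met. The means were 5.19 ± 1.13 and 2.74 ± 0.947 CPM (SD, n = 3), with a log2 fold change of 0.92 ± 0.22 (SE), a 95% interval of 1.38 to 2.58 in fold and an edgeR adjusted p of 0.0101. The call was lost without mimic replicate 1, mimic replicate 2, NC replicate 1 or NC replicate 3, with edgeR adjusted p of 0.0837, 0.0920, 0.0790 and 0.0647.

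SLC2A3, a transporter with high affinity for glucose, did not follow it. Its CPM was 60.7, 66.9 and 58.2 in the mimic libraries and 59.0, 64.0 and 73.7 in NC. The groups overlapped, and the 95% interval of the change was 0.835 to 1.07 in fold. Of the other facilitative transporters listed for comparison, SLC2A6, SLC2A8 and SLC2A10 did not pass, SLC2A4 had 134 reads over the 6 libraries, and SLC2A2 and SLC2A12 were too scarce to test, with 28 and 40 reads.

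The upper part of glycolysis, from hexokinase to triose phosphate isomerase, had 8 members and none of them passed. HK1 and HK2 phosphorylate glucose. HK1 stood at 199, 191 and 181 CPM with the mimic and at 198, 207 and 203 in NC, and HK2 at 204, 189 and 213 against 197, 174 and 218. GPI, which makes fructose phosphate, had a log2 fold change of −0.06 ± 0.07. PFKL and PFKP, liver- and platelet-type phosphofructokinases of the committed step, had 0.02 ± 0.08 and −0.06 ± 0.09. TPI1, which interconverts the triose phosphates, had −0.08 ± 0.07. For these 6 genes the groups overlapped, and mimic replicate 1 held the highest PFKL level of all libraries, at 243 CPM against 192 to 216 CPM elsewhere.

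The aldolases split the sugar into triose phosphates. ALDOA had 795, 695 and 676 CPM in the mimic libraries and 790.5, 830.1 and 766 in NC. The groups overlapped through mimic replicate 1. ALDOC, the brain-type aldolase, had 15, 13.4 and 13 CPM against 16.8, 15.9 and 15.9, so all mimic libraries were below all NC libraries. Its log2 fold change of −0.23 ± 0.11 did not pass, with an edgeR adjusted p of 0.244.

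The PFKFB enzymes set the level of a regulatory fructose bisphosphate, distinct from the aldolase substrate, that activates phosphofructokinase. PFKFB3, whose kinase activity predominates, had 31.0, 30.8 and 27.7 CPM with the mimic and 31.0, 34.5 and 32.5 in NC, and the 2 groups touched at mimic replicate 1 and NC replicate 1 without crossing. PFKFB4 ranged from 16.9 to 24.9 CPM with the mimic and from 21.8 to 25.2 in NC. Neither passed, with edgeR adjusted p of 0.474 and 0.564. A relative outside the 30 genes did. PFKFB2, a heart-type enzyme of the family, had 33.3, 33.0 and 37.4 CPM against 24.4, 24.5 and 26.4, and rose 1.38-fold with an edgeR adjusted p of 0.0018.

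ENO1, enolase of most tissues, carried the one change among the 6 members from GAPDH to pyruvate kinase. Its CPM was 2712, 2457 and 2342 with the mimic, in replicate order, and 2006, 2276 and 1984 in NC. The lowest mimic library exceeded the highest NC library by a small margin. The means were 2504 ± 189 and 2089 ± 163 CPM (SD, n = 3), the log2 fold change was 0.26 ± 0.07, with a 95% interval of 1.08 to 1.33 in fold, and the edgeR adjusted p was 0.0325. Leaving out mimic replicate 1 or 2 gave an edgeR adjusted p of 0.132 or 0.0955, and leaving out NC replicate 1 or 3 gave 0.215 or 0.134. Of 11 listed proliferation genes, 3 were higher, with summed levels of 1443 to 1720.4 CPM in the mimic and 1249.6 to 1449.9 CPM in NC libraries, which overlapped slightly, and their part in the result was not tested. The number of proliferation genes called was 6 without mimic replicate 3, 7 without NC replicate 2 and 1 without mimic replicate 2, NC replicate 1 or NC replicate 3.

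ENO2, the neuronal enolase, did not pass. It had 93.2, 86.6 and 80.1 CPM against 91.3, 103 and 96.9, with a log2 fold change of −0.17 ± 0.08 and an edgeR adjusted p of 0.25, and the groups overlapped. PKM, pyruvate kinase of most cells, had 4968, 4443 and 4405 CPM with the mimic and 4211, 4358 and 4262 in NC. All mimic libraries were above all NC libraries, mimic replicate 1 most clearly, but the log2 fold change of 0.11 ± 0.07 did not pass, with an edgeR adjusted p of 0.442. GAPDH, often used as a reference gene, ranged from 2919.8 to 3346 CPM with the mimic and from 3072 to 3335 in NC. PGK1, which yields the first ATP of the pathway, had a log2 fold change of −0.03 ± 0.07, and PGAM1, which moves the phosphate before the enolase step, had −0.15 ± 0.08. The groups of all 3 overlapped.

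**Figure D3:**
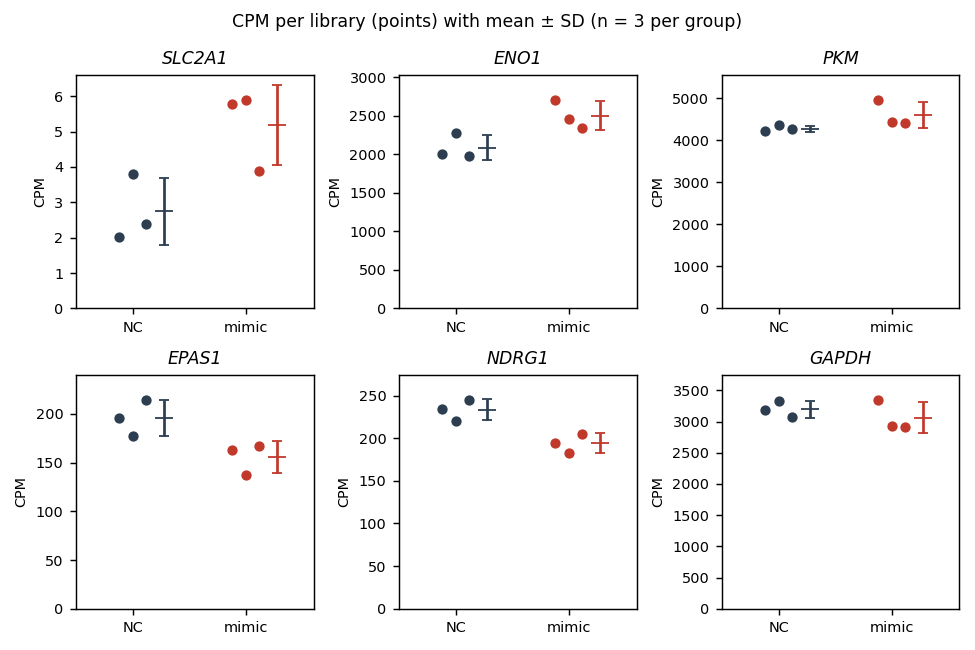
CPM of the 4 called genes and of PKM and GAPDH in each library (points), with the mean and SD of 3 libraries beside them, on axes that start at 0. SLC2A1 and ENO1 lie higher and EPAS1 and NDRG1 lower with the mimic, PKM is separated by little, and GAPDH overlaps.

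The glycolytic enzymes drifted together between libraries of the same group. Their mean log2 deviation from the average of the 6 libraries, over the 14 enzymes, was 0.09 in mimic replicate 1, −0.05 in mimic replicate 2 and −0.10 in mimic replicate 3. In NC replicates 1 to 3 it was 0.00, 0.07 and −0.00. Mimic replicate 3 was the lowest library for 11 of the 14 enzymes, and NC replicate 2 was the highest for 7. Their summed level was 13692 to 15626 CPM with the mimic and 13725 to 14728 CPM in NC, which overlapped.

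Ratios of reads within a library cancel such a shared drift. They were formed for 13 pairs, which were chosen after the values were seen, and they carry no test. Gene length scales such a ratio equally in every library, so the ratios are compared between libraries only. The ENO1 to PGAM1 ratio was 2.33, 2.36 and 2.40 in the mimic libraries and 1.73, 1.79 and 1.82 in NC. ENO1 to ENO2 was 29.1, 28.4 and 29.2 against 22, 22 and 20.5, and ENO1 to GAPDH was 0.810, 0.840 and 0.802 against 0.631, 0.683 and 0.646. In each case the gap between groups was wider than the spread within them. PKM to GAPDH was 1.48, 1.52 and 1.51 against 1.33, 1.31 and 1.39. SLC2A1 to SLC2A3 was 0.0952, 0.0883 and 0.0668 against 0.0343, 0.0596 and 0.0325, from few SLC2A1 reads. The ratio of LDHA to its partner subunit LDHB was 3.22, 3.19 and 3.20 against 2.97, 2.89 and 3.02. LDHB itself had 348, 355 and 362 CPM with the mimic and 386, 400 and 365 in NC. Its log2 fold change of −0.11 ± 0.07 did not pass, with an edgeR adjusted p of 0.402. Of the 13 ratios, 8 did not overlap between groups and 5 did, namely those of the hexokinases, phosphofructokinases, PFKFB enzymes, aldolases and P4HA subunits. The 8 include every pair with ENO1 or PKM, which did not overlap on their own. No share over all gene pairs was computed, so the count is not a result about the members. A ratio shows unequal change of its 2 genes, not which of them changed.

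**Figure D4:**
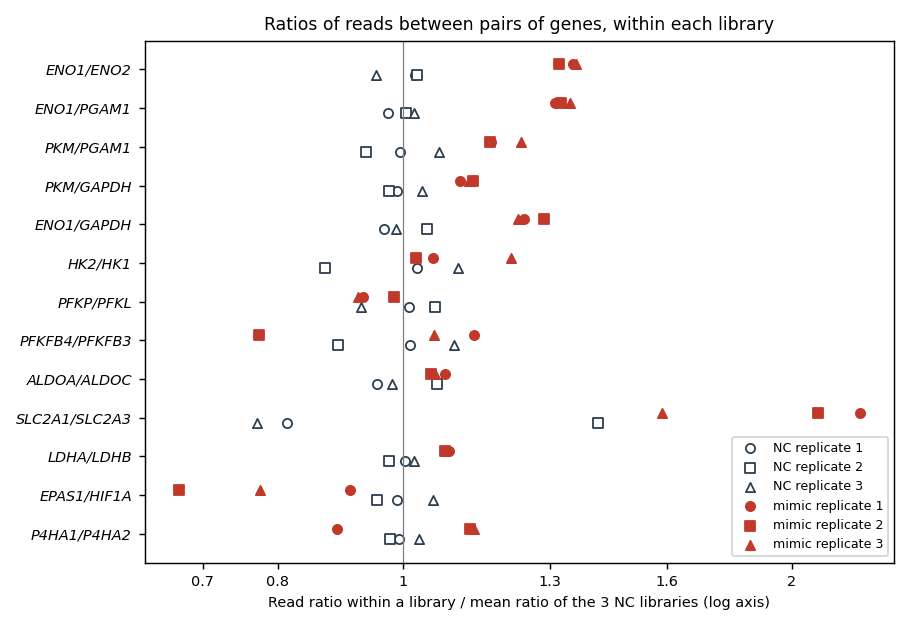
Read ratios within each library, divided by the mean ratio of the 3 NC libraries, on a log axis, with filled symbols for mimic and open symbols for NC libraries. The ENO1 and PKM ratios, SLC2A1 to SLC2A3 and LDHA to LDHB sit right of all NC points. EPAS1 to HIF1A sits left, while pairs such as HK2 to HK1 mix.

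At the fate of pyruvate, LDHA, the lactate dehydrogenase subunit favoured in glycolytic cells, hardly varied. It had 1118, 1134 and 1157 CPM with the mimic and 1147, 1156 and 1102 in NC, with a 95% interval of the change of 0.913 to 1.10 in fold. PDK1, a kinase that blocks entry of pyruvate into the mitochondrial cycle, had 11.7, 16.0 and 15.7 CPM against 16.3, 16.0 and 19.7. Mimic replicate 1 was the lowest, and the other 2 mimic libraries lay just below NC replicate 2. The log2 fold change of −0.26 ± 0.12 did not pass, with an edgeR adjusted p of 0.25. None of 14 other genes of pyruvate entry and none of 7 pentose phosphate genes passed, with list medians of 0.00 and −0.04.

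Of 27 further genes of glucose transport, glycolysis and its reversal, 20 were tested, 2 were higher and 0 were lower. The second beside PFKFB2 was FBP1, a gluconeogenic phosphatase, with 3.13, 2.83 and 2.56 CPM against 1.87, 1.39 and 1.25. It rose 1.88-fold, at an edgeR adjusted p of 0.0156. Leaving out mimic replicate 1, mimic replicate 2 or NC replicate 3 gave edgeR adjusted p-values of 0.0762, 0.0642 and 0.0809. The muscle-type mutase PGAM2 had no reads. In the annotation deposited with the counts, 48 tested genes carry the glycolysis and gluconeogenesis pathway, of which 2 were higher, FBP1 and ENO1, and 3 were lower. The lower ones were the aldehyde dehydrogenases ALDH1A3, at 0.775-fold, and ALDH9A1 and the glucose phosphatase G6PC3. ALDH9A1 and G6PC3 lost their edgeR calls without mimic replicate 2, NC replicate 1 or NC replicate 3, at adjusted p of 0.0812 to 0.189, and G6PC3 also without mimic replicate 3 or NC replicate 2, at 0.0978 and 0.147. Without mimic replicate 1, mimic replicate 2 or NC replicate 3 the pathway had 0 higher genes, without NC replicate 1 it had 1, and without mimic replicate 2 or NC replicate 1 it had 1 lower gene.

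The HIF alpha genes parted. HIF1A, the factor most tied to glycolytic genes, had 114, 130.4 and 137 CPM with the mimic and 126, 118 and 129 in NC, so the groups overlapped. EPAS1 had 163, 137 and 167 CPM against 196, 177 and 214, and all mimic libraries were below all NC libraries. Its means were 156 ± 16.0 and 196 ± 18.7 CPM (SD, n = 3), which is −0.33 ± 0.08 as a log2 fold change (edgeR adjusted p 0.0145). Leaving out mimic replicate 2, NC replicate 1 or NC replicate 3 ended the call, at edgeR adjusted p-values of 0.164, 0.0625 and 0.111. The ratio of EPAS1 to HIF1A reads was 1.43, 1.05 and 1.22 with the mimic and 1.55, 1.5 and 1.66 in NC, without overlap. EPAS1 is abundant in endothelium, and endothelial markers were scarce. Over 5 of them the summed level was 3.03 to 3.52 CPM with the mimic and 5.05 to 6.30 CPM in NC, and 1 of 2 tested was lower, PECAM1, a call lost without mimic replicate 2, NC replicate 1 or NC replicate 3. VWF did not pass, with a log2 fold change of −0.43 ± 0.24 and every mimic library below every NC library. TEK, with 56 reads over all libraries, was too scarce to test. It averaged 0.277 CPM with the mimic and 0.659 CPM in NC, and the groups overlapped. KDR and CDH5, which define that cell type, had 1 and 6 reads over all libraries, with CDH5 at 0.0817 CPM on average with the mimic and 0.0164 CPM in NC. The part of such cells in the EPAS1 result was not tested.

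The enzymes that mark HIF alpha for destruction did not pass. EGLN1, the main oxygen-sensing prolyl hydroxylase, had 98.6, 101 and 102 CPM against 110.1, 105 and 112. The groups were apart by a small step, the log2 fold change was −0.12 ± 0.07 and the edgeR adjusted p 0.399. EGLN3, a hydroxylase that hypoxia itself induces, had 1.67 to 3.17 CPM with the mimic and 2.02 to 2.45 in NC, and VHL, the substrate receptor of the ubiquitin ligase, had 3.84 to 5.25 against 3.67 to 5.22. At such depth the 95% intervals reached 0.697 to 1.41 in fold for EGLN3 and 0.810 to 1.37 for VHL. Changes within these ranges could not be told from none. Of 14 further regulators of HIF, 13 were tested and 1 was higher. It was CITED2, which competes with HIF for its coactivator, at 146, 141 and 125 CPM against 113, 118 and 117. Its edgeR adjusted p of 0.0481 lay at the edge, and it rose to between 0.0511 and 0.272 without mimic replicate 1 or 2, or without any of the NC libraries, and to 0.0524, 0.0589 and 0.0544 with RLE scaling, upper quartile scaling and limma-voom.

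Among the 5 hypoxia targets, NDRG1 was lower and the other 4 did not pass, with a log2 fold change above 0 for CA9 and below 0 for ANKRD37, P4HA1 and P4HA2. NDRG1 had 195, 182 and 205 CPM with the mimic and 235, 220.3 and 245 in NC. Every mimic library was below every NC library. The means were 194 ± 11.6 and 233 ± 12.4 CPM (SD, n = 3), the log2 fold change was −0.26 ± 0.07 and the edgeR adjusted p 0.0244. The same 3 omissions as for EPAS1 ended its call, at edgeR adjusted p-values of 0.181, 0.126 and 0.113.

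CA9, a carbonic anhydrase at the cell surface that is among the most specific HIF1A targets, had 12.5, 13.9 and 14.8 CPM against 12.8, 10.9 and 13. The groups overlapped, and its log2 fold change was 0.17 ± 0.12. ANKRD37, a small ankyrin-repeat gene, had 4, 16 and 16 reads with the mimic, in replicate order, and 15, 18 and 16 in NC. Mimic replicate 1 alone was low, and the 95% interval spanned 0.399 to 1.28 in fold. P4HA1 and P4HA2 encode catalytic subunits of the collagen prolyl hydroxylases. P4HA1 had 108, 127 and 132 CPM against 132, 130.3 and 134, again lowest in mimic replicate 1. P4HA2 had 471, 436 and 449 CPM against 514, 517 and 506, with tight groups that did not overlap, a log2 fold change of −0.18 ± 0.06 and an edgeR adjusted p of 0.110. P4HA2 overlaps PDLIM4 in the RefSeq annotation, PGK1 overlaps TAF9B, HK1 overlaps HKDC1 and TACR2, and PFKFB3 overlaps PRKCQ. ALDOA overlaps a further protein-coding locus and a microRNA gene, LDHA, HIF1A and CA9 overlap long noncoding RNA genes, and P4HA1 overlaps a pseudogene. Over the 6 libraries PDLIM4 had 26375 reads against 58455 for P4HA2, and TAF9B had 1119 against 71304 for PGK1. HKDC1, TACR2 and PRKCQ had 2, 128 and 1. How far reads of these members were shared with or lost to a neighbour was not tested. No overlapping gene was found for SLC2A1, ENO1, EPAS1 or NDRG1. Of 7 other collagen hydroxylation genes, 1 was lower, CRTAP, a partner of the prolyl hydroxylase P3H1, with 216 ± 6.72 CPM against 278 ± 6.92 (SD, n = 3). It fell by 22.1%, with an edgeR adjusted p of 0.00101, and passed under all 13 alternative settings tried.

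Beyond the 30 genes, 34 other known hypoxia targets were listed, of which 31 were tested, 2 were higher, 2 were lower and the median log2 fold change was −0.06. BHLHE40, a transcriptional repressor, had 371, 357 and 376 CPM against 304, 305 and 326, with a log2 fold change of 0.24 ± 0.07. Its edgeR adjusted p of 0.0303 became 0.0682 without mimic replicate 2, 0.0610 without mimic replicate 3, 0.221 without NC replicate 1 and 0.0898 without NC replicate 2. VEGFA, the angiogenic growth factor, had 72.8, 78.7 and 81.7 CPM with the mimic and 94.2, 95.9 and 107 in NC. VLDLR, a lipoprotein receptor, had 20.7, 19.6 and 21.7 CPM against 29.6, 24.3 and 30.1. Both were lower in every mimic library than in every NC library. VEGFA lost its call without NC replicate 3, at an edgeR adjusted p of 0.0528, and VLDLR without mimic replicate 2, NC replicate 1 or NC replicate 3, at 0.0590, 0.0625 and 0.0560.

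Other classical targets did not pass. ADM, a vasodilator peptide gene, ERO1A, an oxidase of the endoplasmic reticulum, and DDIT4, a brake on growth signalling, had log2 fold changes of −0.04 ± 0.07, −0.00 ± 0.09 and 0.14 ± 0.08. BNIP3, a mitophagy receptor, had 25.5, 21.2 and 22.4 CPM against 28.2, 26.2 and 30.2, with an edgeR adjusted p of 0.0770. These 4 were chosen after their values were seen. In the deposited annotation 75 tested genes carry the HIF-1 signalling pathway, of which 6 were higher and 4 were lower, and the median log2 fold change was −0.00. The higher ones included SLC2A1 and ENO1, and the lower ones were VEGFA, PIK3R3, TF and MAPK3. Without mimic replicate 1, mimic replicate 2, NC replicate 1 or NC replicate 3 the pathway had 3 higher genes, and without mimic replicate 2 or NC replicate 1 it had 2 lower genes. Of 7 tested genes of glucose sensing, including TXNIP, a glucose-induced arrestin, 0 passed edgeR's test.

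For the 26 members that did not pass, the data still bound the change. The unadjusted 95% interval lay within 0.5 of 0 on the log2 scale for 23 of them, and within 0.25 for 11. The 3 with wider intervals were ANKRD37, EGLN3 and PDK1. The intervals excluded 0 for ALDOC, ENO2, PDK1 and P4HA2, which had an unadjusted p below 0.05 and did not pass after adjustment over all genes. For 3 of the 6 genes formed by PDK1 and the 5 hypoxia targets, namely PDK1, ANKRD37 and P4HA1, mimic replicate 1 was the lowest of all libraries, whereas its glycolytic enzymes had the highest mean deviation of all libraries.

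**Figure D5:**
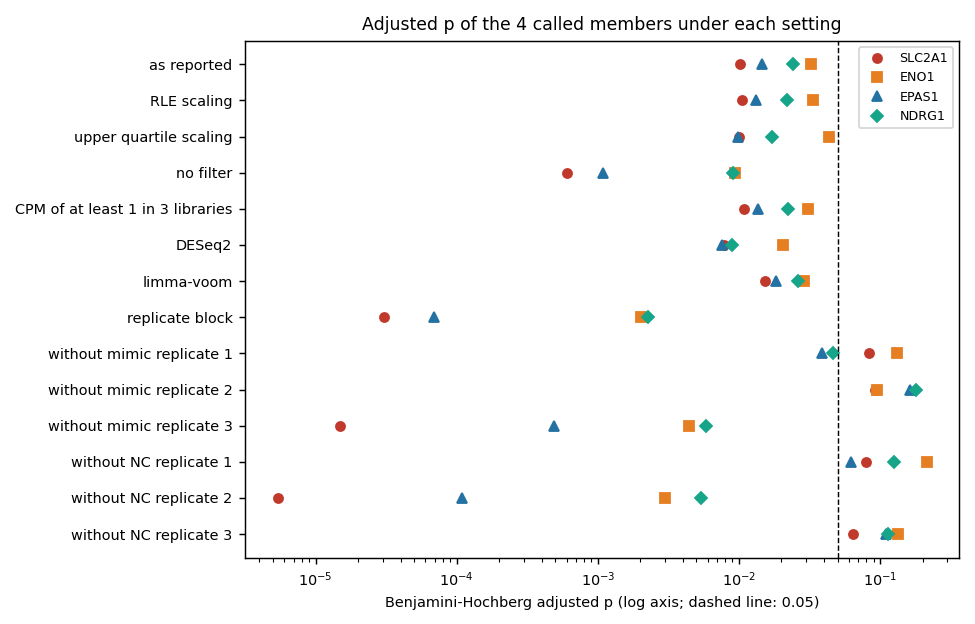
Adjusted p on a log axis of the 4 called members as reported and under 13 alternative settings. Other scalings, filters, tools and the replicate block keep all 4 left of the dashed line at 0.05, and leaving out mimic replicate 2, NC replicate 1 or NC replicate 3 moves all 4 to its right.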

How the data were processed

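RNA-seq libraries of BEND cells, 3 mimic and 3 NC, were made with a stranded poly(A) kit per the labels' protocols. The authors deposited raw counts per gene. Per the submitters' processing notes the tools were Trimmomatic, HISAT2 and HTSeq. The genome build, annotation, tool versions and strand setting are unstated there, and no coordinates are printed. Of 20958 genes, 5579 had no reads. A RefSeq table (ARS-UCD2.0) held the GeneIDs of all 30 members and served to find overlapping genes. The 30 genes and all lists were chosen with earlier results of these data known. Named genes are the 30 members, up to 4 called genes of each list by smallest p, called genes of the deposited pathways, and those said to be chosen later. Markers are given as sums and counts, and some are named for their level or change. One called gene of the comparison lists is counted but not reported here by name.

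Counts were tested with edgeR 4.0.16 (limma 3.58.1, R 4.3.3): filterByExpr (minimum count 10, total 15; 12217 genes), TMM (factors 0.983 to 1.01), robust quasi-likelihood F test, two-sided, Benjamini-Hochberg at 0.05. On simulated data with 200 changed genes, the procedure called 78% of those changed by 0.5 on the log2 scale and 97.9% of those changed by 1. Of its calls there, 6.57% were false. No change smaller than 0.5 was simulated. SE was obtained as the size of the log2 change over the root of its F value. CPM uses TMM-scaled totals. The alternatives were RLE and upper quartile scaling, no filter, a stricter filter (at least 1 CPM in 3 libraries), limma-voom, DESeq2 1.42.0, a block for replicate number, and leaving out each library. Library totals limit precision to counting error plus the spread of 3 libraries. An exact test of 3 against 3 cannot go below p = 0.1, so none was used for the ratios. The pathway terms of the deposited annotation were added after the data were seen.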

Additional observations from a re-analysis of the deposited data

How the results depend on the processing

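The 4 member calls (2 higher, 2 lower) were the same in number under RLE and upper quartile scaling, without a filter, with CPM of at least 1 in 3 libraries, with DESeq2, with limma-voom and with the replicate block. Leaving out single libraries gave 0 to 2 higher and 0 to 2 lower members, 275 to 731 higher and 82 to 414 lower genes over the whole table, and 3 to 10 higher and 2 to 12 lower genes over the comparison lists, against 525, 263, 8 and 5 as reported. Those lists hold further glycolysis, pyruvate entry, pentose phosphate, HIF regulation, other hypoxia target, collagen hydroxylation, glucose sensing, ribosomal and proliferation genes, and leave out the cell type markers and the pathways of the deposited annotation. The lists had 9 lower genes without a filter. With the replicate block, the calls were 816 higher and 496 lower over all genes, and 15 lower over the lists. Libraries with the same number had correlated deviations of −0.05, 0.13 and 0.19, so the numbers are not shown to pair the libraries. LDHA, near 0, turned to −0.00258 with RLE, −0.0082 with upper quartile scaling, −0.00235 without a filter, −0.00104 with the stricter filter and −0.00259 with DESeq2. When libraries were left out, log2 fold changes of uncalled members crossed 0: SLC2A3 −0.15 to 0.0100, HK2 −0.0412 to 0.12, PFKL −0.0896 to 0.0858, PFKP −0.16 to 0.0182, LDHA −0.0188 to 0.0128, HIF1A −0.0247 to 0.10, EGLN3 −0.35 to 0.16 and VHL −0.0652 to 0.26. The cause was not tested. Few reads limit SLC2A1, EGLN3, VHL and ANKRD37. With 3 libraries per group, no library was tested as an outlier.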
